A study of Homo sapiens with 19 samples.

Results

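Binding of the retinoblastoma protein RB was mapped by chromatin immunoprecipitation with sequencing (ChIP-seq) in 2 established prostate cancer cell lines, C4-2 and VCaP, and is described here as the contents of the 2 deposited RB interval lists and their overlap. All intervals of both lists were taken, 9146 from C4-2 and 17026 from VCaP, which is 26172 of the 203381 intervals deposited for the series. The C4-2 list stands for 2 libraries and the VCaP list for 1 library. The C4-2 libraries are titled Ctrl and the VCaP library Veh, for vehicle, and both lines are described here as untreated. Both immunoprecipitations used an anti-RB antibody from the same supplier. Both lines were grown in medium with 5% charcoal-stripped serum, in an RPMI base for C4-2 and a DMEM base for VCaP. The interval names of the VCaP list carry the word NODHT and those of the C4-2 list the name of a single library. The remaining 8 lists of the series map V5-tagged E2F1 in C4-2 cells. Since each line has 1 list, the spread between libraries cannot be measured, no test was run and no p-value is given. Line, base medium, control label and library cannot be told apart in any difference below.

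RB is a pocket protein without a DNA-binding domain that reads sequence. It reaches chromatin mainly through E2F transcription factors, which it holds inactive at genes for DNA replication and cell division until cyclin-dependent kinases phosphorylate it. C4-2 is a castration-resistant derivative of LNCaP cells, and VCaP comes from a vertebral metastasis and carries the TMPRSS2-ERG fusion. Both lines express the androgen receptor. Interval lists hold no expression values, so the identity of the lines was not checked against expression markers.

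Strength is given in 2 deposited units of the peak caller MACS2. Fold enrichment divides the summit reads by those of the surroundings, and −log10 q is the caller's confidence that the summit exceeds that background. The fold and p-value of an interval together fix its summit reads and its local background. The background is given as a multiple of the floor. The floor is the lowest background found in 5 or more intervals of a list, taken here as its genome-wide expectation. The floor was 0.821 reads in C4-2 and 0.635 in VCaP. Divided by the smallest interval width, 100 and 213 bases, it gave depths of 8.21 and 2.98 reads per kilobase. At a background of 1.8 to 2.2 times the floor, the weakest interval called had a fold of 3.49 with 8 reads in C4-2 and of 3.55 with 7 reads in VCaP. At that background the lists had similar lowest folds, although their depths per kilobase differed. A local background of at least 10 times the floor, here called high background, was present in 437 C4-2 intervals (4.78%) and 210 VCaP intervals (1.23%). Intervals on chromosome Y and the mitochondrial genome, 133 in C4-2 and 62 in VCaP, entered the list totals but no account by chromosome or window.

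Intervals of both lines with 1 or more bases in common were called shared, which held for 5420 C4-2 intervals (59.3%) and 5134 VCaP intervals (30.2%). This left 3726 intervals in C4-2 alone and 11892 in VCaP alone. Both shares depended on list length and on the overlap rule. With the VCaP list shortened to its strongest 9146 intervals, they were 47.8% for C4-2 and 44.8% for VCaP. With summits within 100 bases they were 38.6% and 20.7%, and with 50% of both intervals required 22.8% and 12.3%. The 5420 and 5134 intervals formed 5442 overlapping pairs, of which 4802 were one to one. One VCaP interval spanned 2 or more C4-2 intervals in 295 cases, while the converse occurred 22 times. The summits of a pair lay a median of 68 bases apart (quartiles 29 and 129), and in 2183 pairs (40.1%) at most 50 bases apart.

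VCaP-only sites were weaker than shared VCaP sites, and the 2 classes of C4-2 sites lay closer together in strength. VCaP-only intervals had a median fold of 5.22 (quartiles 4.64 and 6.03) and 11 summit reads, against 6.49 (5.39 and 8.02) and 16 reads for shared VCaP intervals. C4-2-only intervals had a median fold of 5.43 (4.71 and 6.51) and 14 reads, against 5.91 (5.05 and 7.14) and 15 reads for shared C4-2 intervals. The median gap from a VCaP-only interval to the nearest C4-2 interval was 82700 bases, and 777 (6.53%) lay within 1000 bases of one. For C4-2-only intervals the median gap to VCaP was 23088 bases, and 875 (23.5%) lay within 1000 bases. The first gap is measured to the shorter list and the second to the longer one, so their sizes cannot be compared between the lines. Close neighbours within a list were more frequent in C4-2, where 2064 intervals (22.6%) had one within 1000 bases, against 1565 (9.19%) in VCaP. The median gap to the nearest interval of the own list was nevertheless longer in C4-2, 39482 bases against 32475. High background was more frequent among C4-2-only than among shared C4-2 intervals (6.71% against 3.45%) and less frequent among VCaP-only than among shared VCaP intervals (0.715% against 2.43%).

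Sharing climbed with strength over a wider range in VCaP than in C4-2. In the weakest decile of the VCaP list by −log10 q, 146 of 1702 intervals were shared (8.58%, 95% Wilson interval 7.34 to 10.004), and in the strongest decile 1314 of 1703 (77.2%, 75.1 to 79.1). The C4-2 list went from 436 of 914 in the weakest decile (47.7%, 44.5 to 50.9) to 599 of 915 in the seventh (65.5%, 62.3 to 68.5), and its strongest decile stood at 584 of 915 (63.8%, 60.7 to 66.9). These intervals cover counting error over sites only. The VCaP list is the longer one and was matched to the shorter, and its weakest decile had a median of 7 summit reads, against 9 in C4-2. The 2 ranges are therefore not on equal terms. Ordered by fold, the C4-2 share ran from 42.5% in the weakest decile to 71.1% in the ninth and 67.3% in the strongest, and the VCaP share from 13.8% in the weakest to 73.5% in the strongest. VCaP intervals with a fold of 15 or more on chromosomes 1 to 22 and X were shared in 88 of 96 cases (91.7%), and C4-2 intervals of that fold in 57 of 93 (61.3%).

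**Figure D1:**
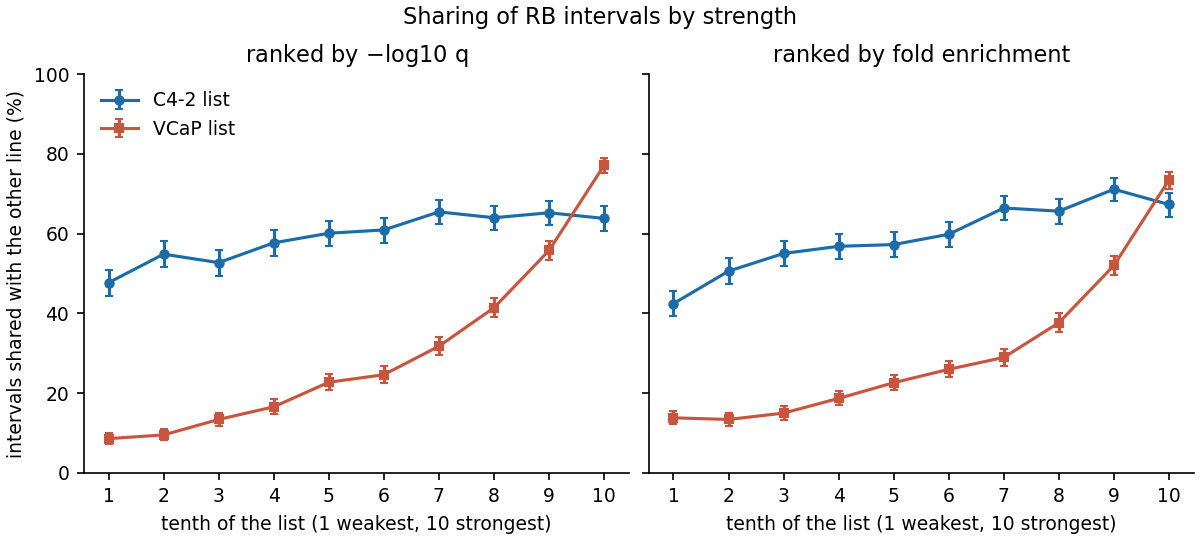
Share of RB intervals found in the other line (percent, vertical axis) for each decile of the C4-2 list (circles) and the VCaP list (squares), ordered by −log10 q on the left and by fold enrichment on the right, with 95% Wilson intervals as bars. The VCaP share climbs from 8.58% to 77.2% by −log10 q, while the C4-2 share stays between 47.7% and 65.5%. The lists differ in length, so the curves are not on equal terms.

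The order of strength among shared sites was only partly the same in the 2 lines. Over the 5442 pairs, Spearman's rho between the lines was 0.38 for −log10 q and 0.39 for fold. It is given as a description, since pairs of 2 lists are not replicates and local background also went together (rho 0.48). The rho of −log10 q depended on the pairing rule, with 0.46 for summits within 100 bases and 0.54 with 50% of both intervals required. Without high background it was 0.35. The strongest 545 pairs of each line had 257 in common (47.2% of each), and 12 of the strongest 545 in C4-2 were among the weakest 10% in VCaP. In the other direction this number was 14. Percentile ranks within the pairs, with 100 as the strongest, differed by more than 50 points in 704 pairs and by more than 75 in 107. The median fold of the pairs was 5.91 in C4-2 and 6.52 in VCaP, and 3412 pairs (62.7%) had the higher fold in VCaP. In low-background pairs this share was 62.2%.

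**Figure D2:**
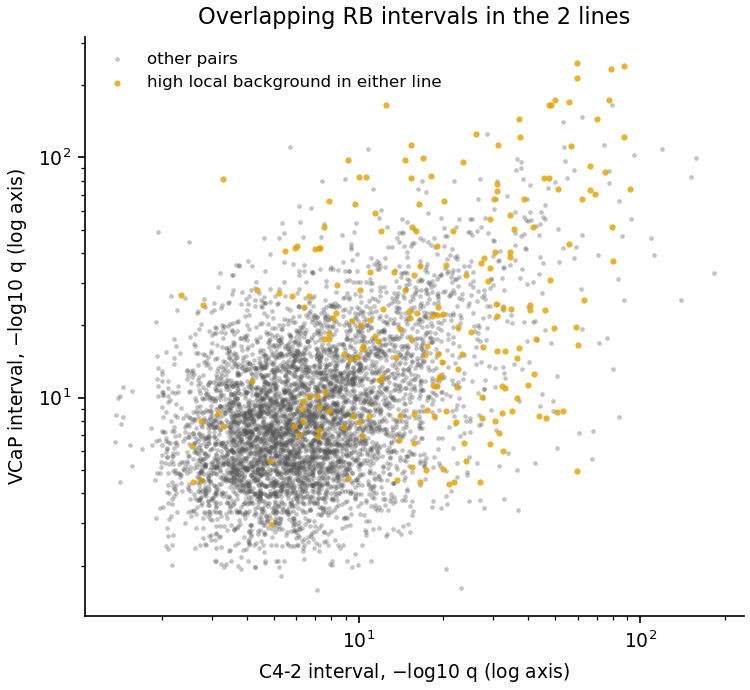
Each point is one of the 5442 overlapping pairs of RB intervals, placed by the −log10 q of its C4-2 interval (horizontal, log axis) and its VCaP interval (vertical, log axis). Yellow points have high local background in either line, and the cloud is broad, with a Spearman's rho of 0.38.

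Named intervals come from fixed rules on rank and exclude high background. Positions are on build hg19. The pair with the best mean rank lay on chromosome 12 at 57145824 to 57146270 in C4-2 and 57145866 to 57146296 in VCaP. Its fold was 19.8 with 84 summit reads in C4-2 and 25.3 with 159 reads in VCaP, its summits lay 27 bases apart, and no V5 list had an interval there. A second pair of chromosome 12, at 123011650 to 123012011 in C4-2, was alike, with folds of 20.2 and 19.4 and no V5 interval. On chromosome 1 at 155214462 to 155214927 the folds were 21.1 and 24.1, with summits 2 bases apart, and 4 V5 lists had an interval. The other 2 of the 5 best pairs lay on chromosome 9, at 66970971 to 66971460 and 69710667 to 69711368 in C4-2. Their folds were 20.5 and 20.2 in C4-2 and 27.6 and 24.1 in VCaP, and all 8 V5 lists had an interval at each. The best pairs thus ranged from no V5 interval on chromosome 12, through 4 V5 lists on chromosome 1, to every list of the series on chromosome 9. Whether repeated sequence lies at the chromosome 9 sites was not examined.

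Some shared pairs were among the strongest of one line and the weakest of the other. The rule of 1 common base also joins intervals with separate summits, so a pair need not be a single site. On chromosome 19, the C4-2 interval at 14117845 to 14117987 had a fold of 3.91 and 9 reads, while the VCaP interval at 14117090 to 14117913 had a fold of 15.1 and 58 reads. Their ranks were 0.432 and 97.5, and their summits lay 632 bases apart. A second site of chromosome 19, at 41256566 to 41256736 in C4-2, had folds of 4.35 and 12.6 at summits 39 bases apart, and ranks of 3.07 and 97.0. On chromosome 4 at 9136674 to 9136773 the folds were 4.21 and 14.1, at summits 192 bases apart. The sites of chromosome 11 at 65308395 to 65308550 and chromosome 8 at 38854092 to 38854204 had folds of 3.97 and 4.01 in C4-2 and 8.32 and 7.51 in VCaP, where local background was 7.52 and 8.29 times the floor. Their summits lay 18 bases apart on chromosome 11 and 201 on chromosome 8. None of these 5 pairs, ranked higher in VCaP, had a V5 interval. The largest gap in favour of C4-2 was on chromosome 1 at 46859848 to 46860012, where C4-2 reached 11.4 with 31 reads and VCaP 3.35 with 8 reads. Its summits lay 50 bases apart. On chromosome 12 at 132413496 to 132413833 the folds were 12.1 in C4-2 and 4.61 in VCaP, at summits 214 bases apart. Neither this pair nor the one on chromosome 1 had an interval in a V5 list. The remaining 3 lay on chromosome 17 at 41381720 to 41382348, chromosome 20 at 26188793 to 26189166 and chromosome 14 at 19005119 to 19005262. Their folds were 9.29, 10.7 and 9.41 in C4-2 and 3.68, 4.24 and 4.83 in VCaP. Their summits lay 316, 61 and 0 bases apart. Their C4-2 intervals overlapped V5 intervals of 1, 7 and 5 lists.

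The strongest sites seen in a single line differed between the lines in their overlap with V5 intervals. All 8 V5 lists come from C4-2 cells, and a VCaP-only site has no C4-2 RB interval by definition. A difference between the lines thus cannot be told apart from the line of the V5 lists. By −log10 q, all 5 strongest C4-2-only intervals had an interval in each of the 8 V5 lists, and 4 of them lay on chromosome 9. The 8 include the lists labelled without doxycycline. Local background at these sites was 1.79 to 3.74 times the floor, so the high-background filter did not act on them. Whether repeated sequence lies there was not examined. The strongest, on chromosome 9 at 70076661 to 70076843, reached a fold of 29.96 with 79 reads, 74397 bases from the nearest VCaP interval. The second, on chromosome 6 at 119558521 to 119558723, and the third, on chromosome 9 at 70327401 to 70327582, reached 29.9 and 30.8 with 78 and 75 reads. The fourth, on chromosome 9 at 42819040 to 42819217, had a fold of 28.7 and 76 reads, and the fifth, on chromosome 9 at 70009803 to 70010108, had a fold of 21.1 and 85 reads. By contrast, the 5 strongest VCaP-only intervals had a V5 interval in at most 1 list. The strongest, on chromosome 20 at 734465 to 734865, reached a fold of 19.1 with 69 summit reads. It was followed by chromosome 21 at 47604332 to 47604688 (16.2, 63 reads) and chromosome 17 at 26368245 to 26368821 (15.1, 64 reads). The fourth, on chromosome 13 at 87602862 to 87603122, reached 21.7 with 48 reads and lay 4396690 bases from the nearest C4-2 interval. Its V5 interval came from WT E2F1 cells with doxycycline. The fifth, on chromosome 12 at 56367415 to 56367881, reached 15.6 with 58 reads, 6583 bases from C4-2.

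The same contrast, with the same limit, held over all single-line sites with a fold of 10 or more on chromosomes 1 to 22 and X. In C4-2 there were 152 such sites, 111 of which (73.0%) had a V5 interval in at least 1 list and 58 in all 8. They were narrow, with a median width of 174 bases against 309 for the 327 shared sites of that fold, of which 134 (41.0%) had a V5 interval. Over all 479 C4-2 sites of that fold the number was 245 (51.1%). In VCaP there were 97 such single-line sites, and 4 of them (4.12%) had a V5 interval. The 559 shared VCaP sites of that fold had one in 195 cases (34.9%), and all 656 in 199 (30.3%). Chromosome 19, named because it held most of these 97 VCaP sites, had 23 of them (23.7%). It held 66 of all 656 VCaP sites of that fold (10.1%) and 5.73% of the whole VCaP list. No C4-2-only site of this fold, and 1 VCaP-only site, had high background.

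RB intervals were densest on gene-rich chromosomes in both lines. Chromosome 19 had the highest density in each, 7.35 intervals per megabase in C4-2 and 16.5 in VCaP, and chromosome X the lowest, 1.45 and 1.88. The span of a chromosome was taken from the first to the last interval of any of the 10 lists. Over 23 chromosomes, Spearman's rho between interval density and protein-coding genes per megabase was 0.87 in C4-2 and 0.76 in VCaP, with genes counted from RefSeq on GRCh38. Per 100 protein-coding genes, chromosome 19 was near the lower end, with 29.9 intervals in C4-2 and 67.2 in VCaP. In C4-2 only chromosome X was lower (26.5), and in VCaP only chromosomes 16 (44.7) and X (34.4) were. Chromosome 21 was highest in VCaP at 134 per 100 genes, where C4-2 had 45.6.

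The 2 lines differed in how their intervals were spread over chromosomes. The VCaP list held 1.88 intervals for each C4-2 interval over chromosomes 1 to 22 and X, and each chromosome was set against that ratio. Chromosome 16 was the lowest at 0.507 (Wilson interval 0.441 to 0.584), with 400 intervals in C4-2 and 382 in VCaP. It was followed by chromosome X at 0.690 (0.580 to 0.820) and chromosome 10 at 0.756 (0.668 to 0.856). Highest were chromosome 21 at 1.56 (1.26 to 1.94), with 109 intervals in C4-2 and 320 in VCaP, and chromosome 13 at 1.401 (1.16 to 1.70), with 143 and 377. At −log10 q of at least 5 in both lists the order turned, with 1.30 on chromosome 21 and 1.53 on chromosome 19 (1.19 over all intervals). The Wilson interval lay above 1 for 7 chromosomes (4, 6, 11, 13, 19, 20 and 21) and below 1 for 6 (1, 10, 14, 16, 22 and X). It takes each site as an independent draw, although sites cluster and many are shared between the lines. It covers counting error only and is no test of a chromosome. The ratio had no relation in rank to gene density (rho −0.04).

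Local background moved with these ratios. On chromosome 16 the median background of VCaP intervals was 1.39 times the floor, against 2.02 in C4-2. On chromosome 21 it was 2.84 in VCaP and 2.01 in C4-2. Medians over chromosomes 1 to 22 and X were 2.01 and 1.94. Across the 23 chromosomes, the rank correlation of the VCaP to C4-2 ratio of intervals with the ratio of background was 0.73. Over 254 blocks of 10 megabases with at least 40 intervals it was 0.62, and 0.21 with VCaP background alone. Background was solved only at called intervals, from their own values, so it is not a measure independent of them. The part of the background in the ratios was not tested. On chromosome 16, 131 of the C4-2 intervals lay between 30 and 50 megabases, and without that stretch the ratio was 0.622.

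**Figure D3:**
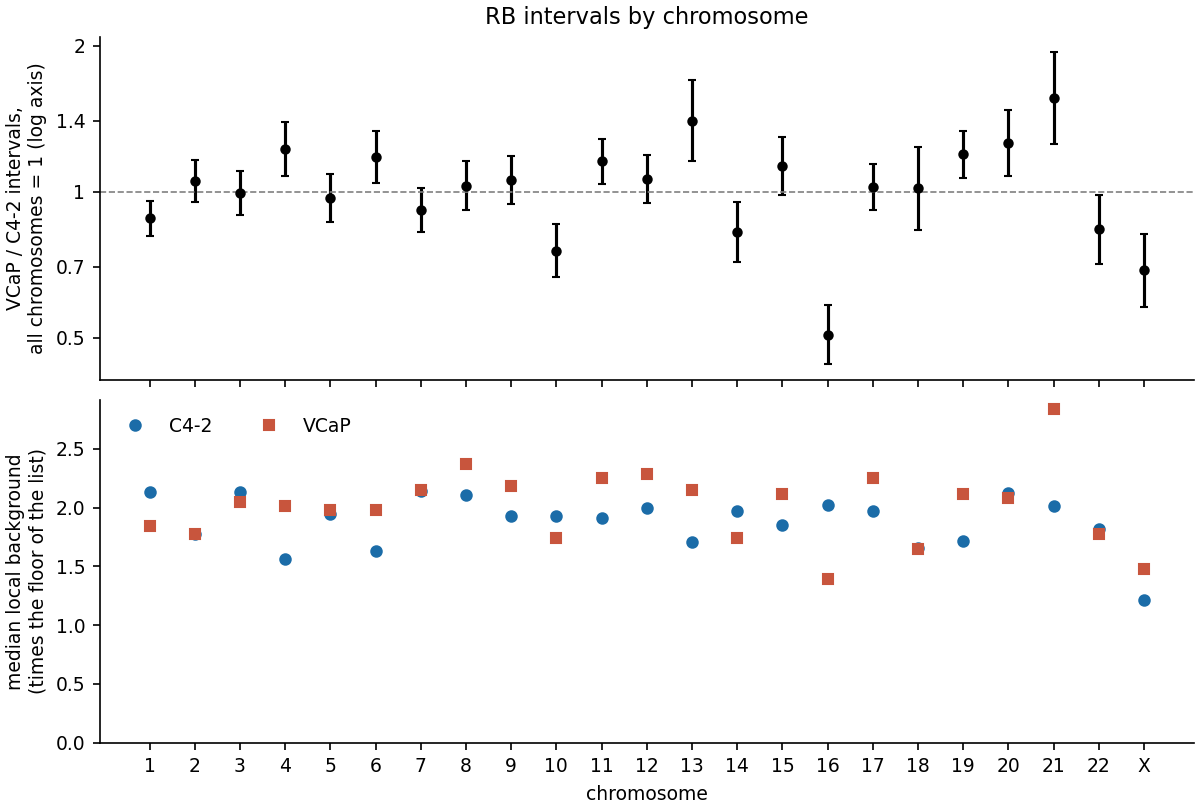
Upper panel: VCaP over C4-2 interval number for each chromosome, divided by the ratio over all of them (log axis), with 95% Wilson intervals as bars, lowest on chromosome 16 at 0.507 and highest on chromosome 21 at 1.56. Lower panel: median local background of the intervals, in multiples of the floor of the list, for C4-2 (circles) and VCaP (squares), where VCaP is lowest on chromosome 16 at 1.39 and highest on chromosome 21 at 2.84.

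Within chromosomes the contrast was uneven. On chromosome 19, VCaP had 143 intervals and C4-2 had 99 in the first 10 megabases, a ratio of 1.44, but 242 against 68 between 40 and 50 megabases, a ratio of 3.56. Background in these blocks was 1.68 in VCaP and 1.72 in C4-2 in the first, and 2.48 and 1.32 in the second. On chromosome 21 the ratio was 1.05 between 10 and 20 megabases and 4.62 between 30 and 40, with 26 intervals in C4-2 and 120 in VCaP. Among the 254 blocks of 10 megabases with at least 40 intervals, the highest ratio was 8.63, on chromosome 8 between 130 and 140 megabases, where C4-2 had 8 intervals and VCaP 69, all but 5 of them in VCaP alone. The lowest was 0.386, on chromosome 9 between 60 and 70 megabases, where 57 C4-2 intervals stood against 22.

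At a resolution of 1 megabase most windows held intervals of both lines. Of 2888 windows with an interval in any list, 2018 held RB intervals of both lines, 509 of VCaP alone and 78 of C4-2 alone. VCaP intervals lay in 2527 of the 2888 windows and C4-2 intervals in 2096. Each list alone thus reached most windows, so the number with both is not read as a choice of the same places. Counts per window correlated with a Spearman's rho of 0.73 over the 2888 windows, as a description.

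Apart from chromosome 19 between 18 and 19 megabases, the 5 windows with most VCaP intervals lay in a run on chromosome 11. That window of chromosome 19 had 39 VCaP and 15 C4-2 intervals, at a VCaP background of 2.28 times the floor. Between 65 and 66 megabases of chromosome 11, VCaP had 59 intervals and C4-2 had 20, of which 18 were shared. Between 64 and 65 megabases the numbers were 50 and 13, and between 63 and 64 megabases 38 and 6. Over the whole run from 63 to 68 megabases there were 234 VCaP and 72 C4-2 intervals, and 170 of the VCaP intervals (72.6%) were absent from C4-2. The fold there was ordinary, with a median of 5.37 in VCaP and 5.58 in C4-2, but the median summit held 25 reads in VCaP, against 12 for the list. Local background was 5.81 times the floor in VCaP and 1.95 in C4-2.

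A second run of this kind lay on chromosome 13 from 109 to 113 megabases, with 88 VCaP and 9 C4-2 intervals. Of these VCaP intervals 82 (93.2%) were absent from C4-2, at a median fold of 4.35 and a background of 6.34 times the floor, against 1.33 in C4-2. Windows were searched for this pattern after these values had been seen. Among 1399 windows with at least 5 VCaP intervals, 24 (1.72%) had a median VCaP background of at least 2 times the median of the list with under 50% of their VCaP intervals at high background. The 2 runs make up 9 of the 24, and no other 2 of them adjoin. Over all 24 windows VCaP had 495 intervals and C4-2 had 295, a ratio of 1.68, below the 1.89 elsewhere. Raised VCaP background thus did not go with a VCaP surplus in every window. On chromosome 4 between 49 and 50 megabases, C4-2 had 73 intervals and VCaP 23. Without the 24 windows, the relative ratio was 1.055 on chromosome 11 (1.16 with them) and 1.14 on chromosome 13 (1.401 with them). The shared part of the lists was then 59.4% for C4-2 and 30.1% for VCaP.

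The windows with most C4-2 intervals lay elsewhere, and many of their intervals had high background. They were chromosome 4 between 49 and 50 megabases with 73 C4-2 and 23 VCaP intervals, and chromosome 10 between 42 and 43 megabases with 72 and 21. Chromosome 16 between 46 and 47 megabases followed with 47 and 20, then chromosome X between 61 and 62 megabases with 44 and 13, and chromosome 2 between 92 and 93 megabases with 42 and 20. All 5 lie near centromeres, where the genome carries long arrays of satellite repeats. High background was present in 68 of the 73 C4-2 intervals of the chromosome 4 window, 63 of the 72 on chromosome 10 and 17 of the 44 on chromosome X. In all, 13 windows had 10 or more C4-2 intervals of high background, with 462 C4-2 and 162 VCaP intervals. These windows were chosen by their C4-2 number, which favours a C4-2 surplus in them, so nothing is read from it. Of the 5 windows with the largest surplus of C4-2 intervals, the one on chromosome 7 between 61 and 62 megabases had the lowest share of high background, 10 of 40, against 10 VCaP intervals in all.

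**Figure D4:**
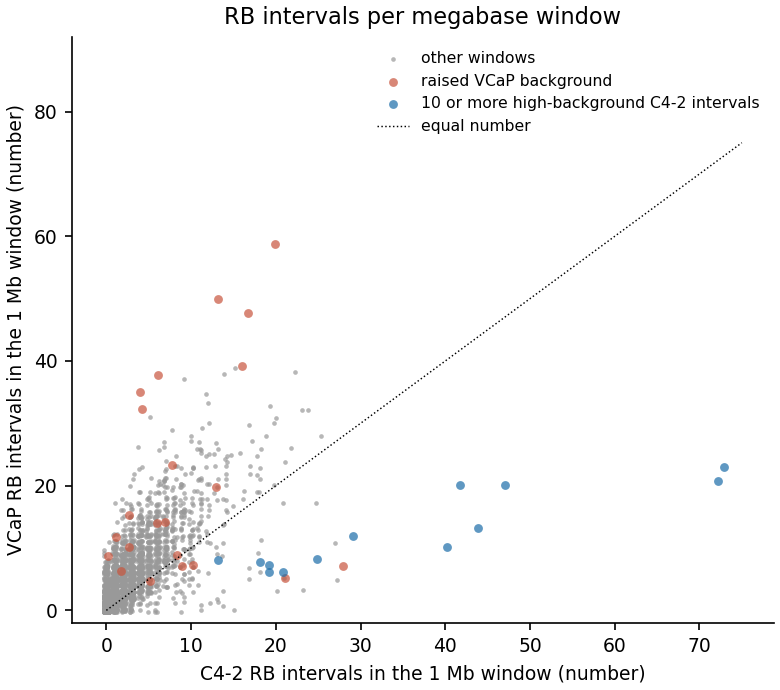
Each point is one of 2888 windows of 1 megabase, placed by its number of C4-2 (horizontal) and VCaP (vertical) RB intervals, with points shifted by up to 0.3 at random so that they can be told apart and the dotted line marking equal numbers. Red points are windows of raised VCaP background, highest at 59 VCaP and 20 C4-2 intervals, and blue points are the 13 windows chosen for 10 or more high-background C4-2 intervals, with up to 73 C4-2 intervals.

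V5-tagged E2F1 was mapped in C4-2 cells only, with wild type (WT) or K185R mutant protein under 4 labelled treatments. No V5 list comes from VCaP, so a low share at VCaP-only sites cannot be told apart from the line of the V5 lists. The same limit applies to a higher share at C4-2-only than at shared sites, since that class is also defined by line. Lists labelled as without and with doxycycline are named siNTC and siRB, so treatments are given as labelled, with Veh written as untreated. The sources do not say whether the tagged protein was present without doxycycline. Among all C4-2 RB intervals 25.4% had a V5 interval in at least 1 of the 8 lists, and among all VCaP RB intervals 9.23%. Sites seen in C4-2 alone had one more often than shared sites, 1103 of 3726 (29.6%, 28.2 to 31.1) against 1220 of 5420 (22.5%, 21.4 to 23.6). VCaP-only sites had one in 355 of 11892 cases (2.99%, 2.69 to 3.31), whereas the VCaP intervals shared with C4-2 had one in 1217 of 5134 (23.7%, 22.6 to 24.9).

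The order of the 3 classes was the same in each V5 list. In untreated WT cells the V5 list had an interval at 18.9% of C4-2-only, 10.8% of shared and 0.799% of VCaP-only sites, beside 14.1% of all C4-2 and 3.87% of all VCaP intervals. In WT cells with doxycycline and GSK2879552, an inhibitor of the demethylase LSD1, the first 2 classes were closest, at 14.8% (13.7 to 15.99) and 13.3% (12.4 to 14.2), and VCaP-only sites stood at 1.16%. There the list-wide shares were 13.9% and 4.95%. In untreated K185R cells the shares were 19.2%, 5.98% and 0.479%, beside 11.4% and 2.09%. C4-2-only sites also stood above shared ones in WT cells with doxycycline (18.6% and 7.18%, beside 11.8% of all C4-2 and 2.63% of all VCaP intervals) and with GSK2879552 (13.7% and 11.7%, beside 12.5% and 4.16%). In K185R cells the shares were 14.4% and 4.46% with doxycycline (beside 8.53% and 1.42%) and 9.69% and 3.58% with both treatments (beside 6.07% and 1.05%). With GSK2879552 alone they were 13.98% and 5.57%, beside 9.0% and 1.81%. All 8 lists together had an interval at 235 C4-2-only sites (6.31%), 152 shared C4-2 sites (2.80%) and 2 VCaP-only sites (0.0168%), beside 4.23% of all C4-2 and 0.805% of all VCaP intervals.

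The share with a V5 interval was higher among strong sites in each class. In the strongest 25% by −log10 q, 594 of 932 C4-2-only sites (63.7%) and 581 of 1355 shared C4-2 sites (42.9%) had a V5 interval. In the weakest 25% the shares were 10.96% and 11.6%, and in the second weakest 25% they were 14.06% and 14.10%. C4-2-only sites thus did not stand above shared ones among weaker sites. VCaP-only sites went from 1.65% in their weakest to 5.21% in their strongest 25%, and shared VCaP sites from 15.2% to 34.7%. Without high background, the shares with any V5 interval were 26.9% for C4-2-only, 20.2% for shared C4-2 and 2.94% for VCaP-only sites. In low-background sites of WT cells with both treatments, the C4-2-only and shared classes stood at 13.2% (12.1 to 14.4) and 11.5% (10.7 to 12.4).

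**Figure D5:**
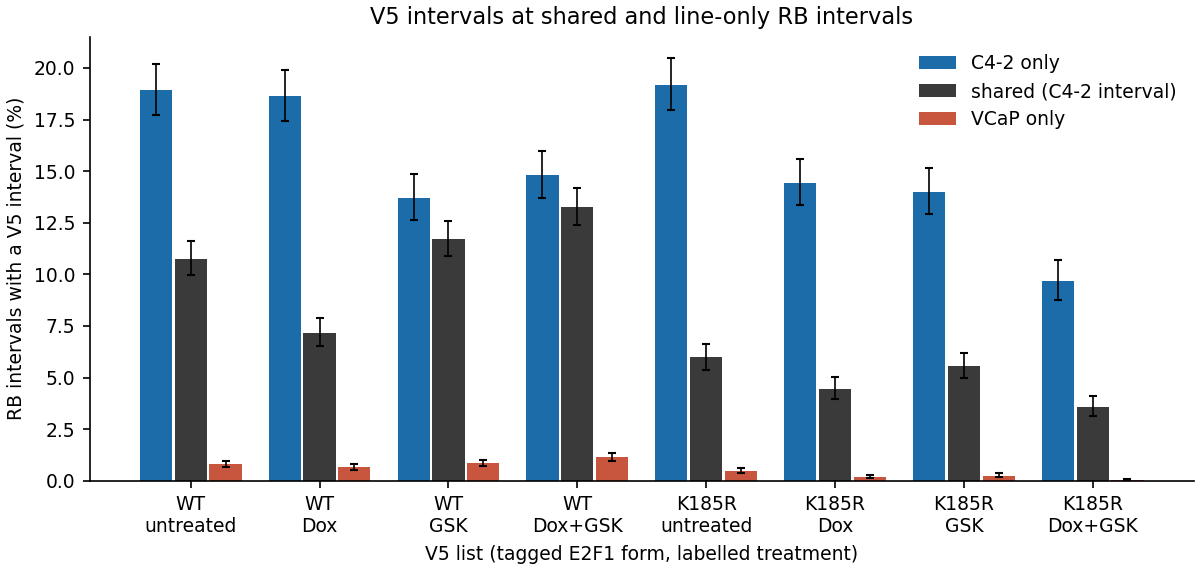
Share of RB intervals with an overlapping V5 interval (percent) in each of the 8 V5 lists, for sites in C4-2 alone (blue), shared sites by their C4-2 interval (black) and sites in VCaP alone (red), with 95% Wilson intervals as bars. VCaP-only sites stay at or under 1.16% in every list, and the blue bar exceeds the black one in each, least in WT with doxycycline and GSK2879552 (14.8% against 13.3%).

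Genes near these intervals were not analysed here, because the gene and promoter tables at hand are on GRCh38 and the intervals on hg19. For the same reason no interval sequence is shown.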

How the data were processed

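Interval lists of ChIP-seq were compared between C4-2 and VCaP. Per the submitters' processing notes, FastQC 0.11.9, BWA 0.7.9a, SAMtools 1.2, MACS2 2.1.0 and build hg19 were used. Settings and the handling of duplicates or input controls were not given in the sources used here. Deposited files hold 1 list per group with a score, the fold enrichment (a linear ratio) and the −log10 p-value and −log10 q-value of each interval, and the summit position as an offset in bases. They are the authors' values for single intervals and were used to describe, rank and filter them.

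Reads and background at each summit were solved from fold and p-value, given a Poisson p and 1 pseudo-read in numerator and denominator. Recomputed −log10 p differed by at most 0.000163, and in 1000 simulated intervals per list the summit reads came back for 98.9% (C4-2) and 99.4% (VCaP). The floor is the lowest background value found in 5 or more intervals, and 2 C4-2 intervals lay under it. Depths of 8.21 and 2.98 reads per kilobase are the floor over the smallest interval width. PCR reads without molecular identifiers are not independent molecules. Wilson intervals (95%) rest on numbers of intervals, not of reads, and cover counting error over sites only. Analyses used Python 3.11.15, pandas 2.3.3, numpy 2.4.6 and scipy 1.17.1.

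Named regions are the 5 best by each rule: mean rank of shared pairs, rank difference in each direction, −log10 q of single-line intervals, and interval number or its difference per window. Named intervals lie on chromosomes 1 to 22 and X with a background under 10 times the floor. The comparisons, rules and gene lists were chosen with earlier results of these data known. Gene lists went unused because the gene table is on another build. Alternatives were other overlap rules, a higher −log10 q, equal list lengths, other windows and leaving out high or raised background.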

Additional observations from a re-analysis of the deposited data

How the results depend on the processing

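The shared part of the lists depended on the overlap rule and on list length. For C4-2 it was 53.0% at −log10 q of at least 5 in both lists, 22.8% with 50% of both intervals required, 38.6% with summits within 100 bases, and 47.8% with the VCaP list shortened to its strongest 9146 intervals. For VCaP these shares were 31.9%, 12.3%, 20.7% and 44.8%. Added after seeing the data, widening C4-2 intervals by 56 bases on each side, as their smallest width is less, gave 61.3% and 31.0%. The rank correlation over pairs was 0.54 with 50% of both intervals required, 0.46 with summits within 100 bases and 0.35 without high background. The relative ratio of chromosome 19 was 1.38 at equal list length and 1.53 at −log10 q of at least 5, where that of chromosome 21 was 1.30. That of chromosome 13 was 1.14 without windows of raised VCaP background, and that of chromosome 16 was 0.622 without 30 to 50 megabases. The share of sites with any V5 interval was 29.4% for shared C4-2, 38.7% for C4-2-only, 30.4% for shared VCaP and 6.56% for VCaP-only sites at −log10 q of at least 5. Without high background the first 3 were 20.2%, 26.9% and 22.3%. In these settings the order of the classes was kept, and the cause of each shift was not tested. Alternatives on distance to gene starts, on gene lists and on sequence were not run, as no annotation or genome of hg19 was used. No paired analysis was possible because each group has 1 list. At a background of 1.8 to 2.2 times the floor, the lowest folds called were 3.49 (C4-2) and 3.55 (VCaP), and weaker sites of such background were not detectable at this depth.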
